A study of Mus musculus with 2 samples.

Results

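The genes described here handle iron and heme: *Slc40a1*, *Hmox1*, *Fth1*, *Ftl1*, *Tfrc*, *Slc11a1*, *Slc48a1* and *Blvrb*, 8 of the 32285 genes counted. The group was chosen by a readout of the same data, since *Slc40a1* had been seen to be higher in macrophage-like cells of *Pgd*fl/flLysMCre tumors. The level of *Slc40a1* in those cells is therefore a description, and nothing is supported with it. The other genes and the other cell classes were not part of that choice, although they were read from the same libraries.

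Single-cell RNA was measured in leukocytes from AT3 tumors, which grow from a mouse mammary carcinoma line, in female mice of 6 to 12 weeks. The Pgdfl/fl group carries a floxed *Pgd* gene, which encodes the pentose phosphate pathway enzyme 6PGD, and no Cre. The Pgdfl/flLysMCre group carries the same floxed gene together with Cre under *Lyz2*, a gene of macrophages, monocytes and neutrophils, so deletion is limited to cells that have used that promoter. Each genotype was 1 library, made from tumors of 10 mice pooled on day 30. The labels name a CD45+ sort in one sentence and a CD11b+ sort in another, and both libraries held T cell-like and B cell-like cells. With 1 library a genotype there is no replicate, and no test between genotypes was made: genotype cannot be told apart from the pool of mice. Levels are counts of unique molecular identifiers (UMIs, tags that mark single captured RNA molecules), scaled to the total UMIs of a cell class in that library as counts per 1e6 (CPM). All intervals are 95% intervals, cover counting error only, and are too narrow where a few cells carry most of the UMIs.

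After filtering, 3565 Pgdfl/fl cells with a median of 5554 UMIs and 2798 Pgdfl/flLysMCre cells with a median of 7926 UMIs were kept, and the libraries shared 0 barcodes. Clusters were named from marker genes, and the names were rebuilt here, so a difference from the cell types of the study may come from that. Macrophage-like cells (749 in Pgdfl/fl and 769 in Pgdfl/flLysMCre) held UMIs of all 9 macrophage markers as a class. In their cluster led by *Ighm* and *Ccl8* (94 and 101 cells), 7 of the 9 were found in at least 25% of cells. The other myeloid classes were monocyte-like (128 and 343 cells), dendritic cell-like or DC-like (101 and 137) and neutrophil-like (57 and 72). The monocyte-like cluster had 4 of 9 monocyte markers at that level, with the DC marker *Cd209a* among its leading genes. The 2 DC-like clusters had 6 and 4 of 9 DC markers. Clusters that got no name from the markers were left out of every class and subcluster. They were led by *Cd8b1* and *Ly6c2* (463 and 304 cells), by *H2-M5* and *Tcea3*, with *Epcam* and *Cd207* (103 and 147), and by *Dcpp3* and *Dcpp1* (44 and 48). The 16 mast cell-like cells all came from the Pgdfl/flLysMCre library and were not compared. *Pgd*, on chromosome 4, 149149991 to 149166705, was 104 CPM in Pgdfl/fl and 29.9 CPM in Pgdfl/flLysMCre macrophage-like cells, a log2 ratio of -1.80 (interval -1.98 to -1.61). In monocyte-like cells the log2 ratio of *Pgd* was -1.36 (-1.76 to -0.97). In DC-like cells the ratio was -0.13 (-0.80 to 0.55), and in T cell-like cells, which do not use the *Lyz2* promoter, it was 0.24 (-0.09 to 0.57). The epithelial cell-like cells, 28 and 46 in number, are outside the *Lyz2* lineage too but had 68.2 and 29.8 CPM, a log2 ratio of -1.19 (-1.91 to -0.49). In these cells the macrophage gene *C1qa* was 346 and 207 CPM and *Lyz2* 96.5 and 3.73 CPM, and the part of macrophage RNA in their *Pgd* value was not tested. Neutrophil-like cells held 8 and 5 *Pgd* UMIs, too few to show a deletion at this depth. *Lyz2* itself, the gene that holds Cre, was 3060 and 25.4 CPM in macrophage-like cells.

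Macrophages take up senescent red cells and other heme-rich debris. Heme is moved out of the phagolysosome by HRG1 (*Slc48a1*) and opened by heme oxygenase 1 (*Hmox1*) into iron, carbon monoxide and biliverdin, which biliverdin reductases, among them *Blvrb*, reduce further. Iron also enters on transferrin through the transferrin receptor (*Tfrc*), leaves phagosomes through NRAMP1 (*Slc11a1*), is stored in ferritin, a shell of heavy (*Fth1*) and light (*Ftl1*) chains, and leaves the cell through ferroportin (*Slc40a1*), the known iron exporter of mammals. Several of these messages carry iron-responsive elements, short hairpins bound by iron regulatory proteins when iron is scarce: in the 5' UTR the binding blocks translation, and in the 3' UTR it protects the message from decay.

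The genes lie on separate loci of the GRCm38.p6 assembly in RefSeq. *Slc40a1* (ENSMUSG00000025993) is on chromosome 1 from 45908070 to 45926532, and *Slc11a1* is on the same chromosome from 74375014 to 74386057. *Blvrb* (chromosome 7, 27447978 to 27465981) and *Ftl1* (chromosome 7, 45457944 to 45459886) also share a chromosome. *Hmox1* is on chromosome 8 from 75093618 to 75100593, *Slc48a1* on chromosome 15 from 97784365 to 97792692, *Tfrc* on chromosome 16 from 32608896 to 32632794 and *Fth1* on chromosome 19 from 9980600 to 9985111. *Fth1* and *Ftl1* have near-identical processed copies, and reads that fit a copy as well can be lost or split. The copy *Ftl1-ps1* was counted as a gene of its own, at 38.2 and 45.4 CPM in macrophage-like cells, so levels of the ferritin genes are uncertain by an unknown share.

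The hairpin letters of the iron-responsive element were searched in the UTRs of the Ensembl canonical transcripts of GENCODE vM39, on the transcript strand. The pattern was an unpaired C, 5 bases, the loop CAGTGN and 5 bases that pair with the first 5 (A with T, G with C or T). It was present in 4 of the 8 genes, once each in the 5' UTRs of *Slc40a1*, *Fth1* and *Ftl1* and in 4 places of the 3' UTR of *Tfrc*. Of all canonical coding transcripts, 0.111% of 20810 hold it in the 5' UTR and 0.599% of 20858 in the 3' UTR. The windows of 28 bases are printed because they show which of the genes share this control element, with the fixed loop letters CAGTG in capitals. Positions count from the first base of the transcript.
Slc40a1, 5' UTR, 167 to 194: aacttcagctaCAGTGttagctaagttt
Fth1, 5' UTR, 88 to 115: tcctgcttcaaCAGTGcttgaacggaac
Ftl1, 5' UTR, 79 to 106: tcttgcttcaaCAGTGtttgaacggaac
Tfrc, 3' UTR, 3321 to 3348: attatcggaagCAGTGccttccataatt
Tfrc, 3' UTR, 3700 to 3727: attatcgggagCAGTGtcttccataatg
Tfrc, 3' UTR, 3765 to 3792: tatatcggagaCAGTGatctccatatgt
Tfrc, 3' UTR, 3812 to 3839: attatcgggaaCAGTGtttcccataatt
The *Fth1* and *Ftl1* windows have 26 of 28 bases in common, and the *Slc40a1* window has 13 of 28 in common with either. The letters were not found in the UTRs of *Hmox1*, *Slc11a1*, *Slc48a1* and *Blvrb*. A match describes the sequence, and RNA counts say nothing of the translation it can govern.

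Across the cell classes of Pgdfl/fl tumors, most UMIs of the 8 genes lay in the myeloid classes, with *Tfrc* as the exception. These classes also hold a large part of the UMIs of all genes. Of all UMIs in kept cells, the myeloid classes held 85.7% for *Slc40a1*, 97.1% for *Slc11a1* and 88.8% for *Hmox1*, and 81.8% and 82.3% for *Fth1* and *Ftl1*. For *Blvrb* the share was 68.1% and for *Slc48a1* 61.0%, while *Tfrc* had 20.7% of its UMIs in myeloid classes. Cells of the clusters without a name count among the kept cells but in none of the classes. Over all genes, kept Pgdfl/fl cells held 26959415 UMIs. Of these, 9224246 lay in macrophage-like, 1331638 in monocyte-like, 1382071 in DC-like and 137413 in neutrophil-like cells. The shares of single genes are to be read beside these totals, those of *Slc48a1* and *Blvrb* above all. The level of *Tfrc* was 44.9 CPM (interval 39.9 to 50.4) in T cell-like cells against 11.9 CPM (9.80 to 14.4) in macrophage-like cells. *Blvrb* was not limited to myeloid cells either: B cell-like cells stood at 167 CPM and macrophage-like cells at 161 CPM. RNA free in the droplets can add UMIs to cells that do not express a gene. The macrophage gene *C1qa* stood in T cell-like cells at 1.02% (Pgdfl/fl) and 1.66% (Pgdfl/flLysMCre) of its macrophage level, and *Hmox1* at 2.64% and 4.97%, above *C1qa* in both libraries. The 5 highest T cell-like cells held 16.4% of 61 *Hmox1* UMIs in Pgdfl/fl and 41.0% of 78 in Pgdfl/flLysMCre. The highest cell held 2 and 19 UMIs.

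**Figure D1:**
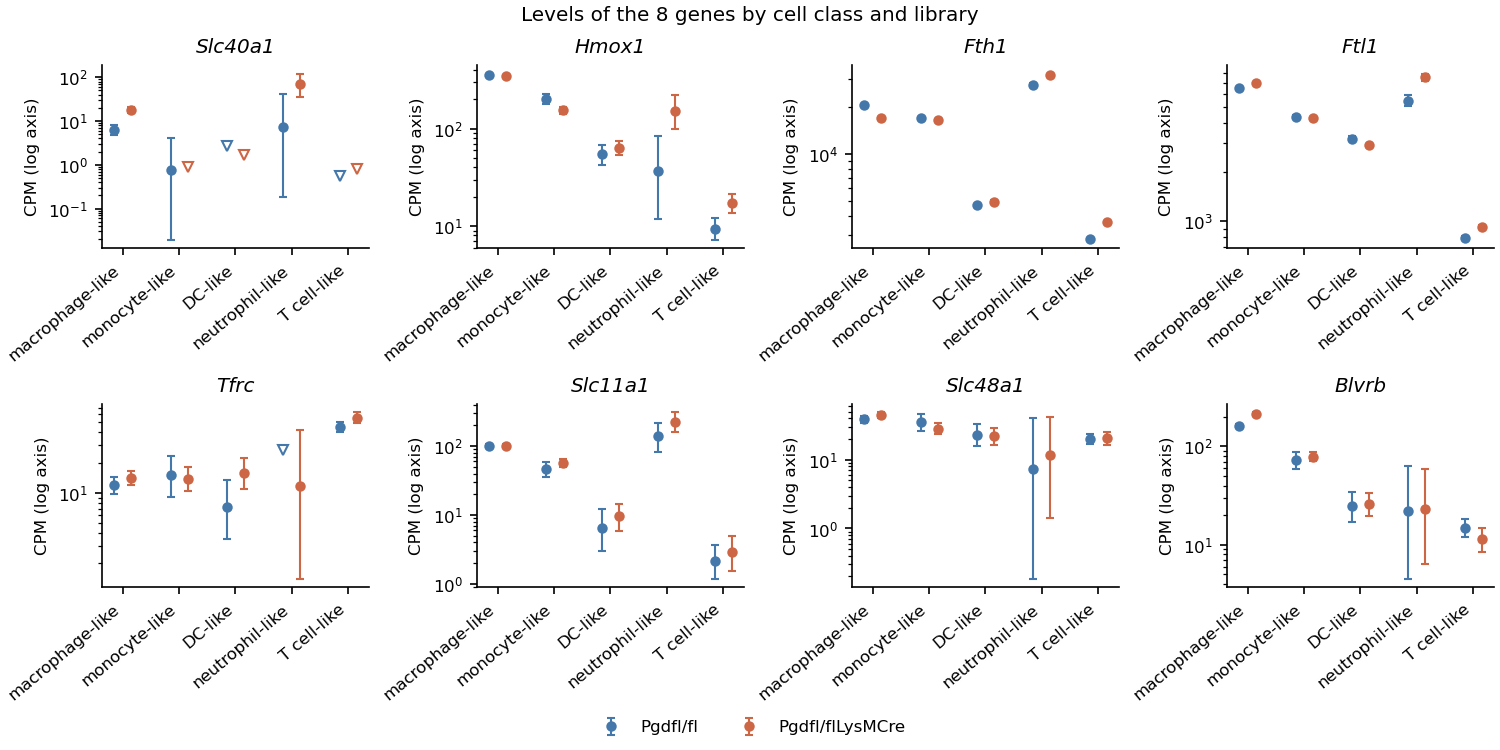
Level of each gene in CPM (log axis) by cell class, blue for Pgdfl/fl and red for Pgdfl/flLysMCre, 1 library each, with exact Poisson 95% intervals as bars; open triangles mark the upper limit where a class held 0 UMIs. *Slc40a1* stands apart between the libraries in macrophage-like cells (6.29 and 18.1 CPM), while *Tfrc* is highest in T cell-like cells.

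In macrophage-like cells, *Slc40a1* was 2.87-fold higher in Pgdfl/flLysMCre, the value on which the group was chosen. Of the other genes, *Blvrb* was higher, *Hmox1*, the heme-opening enzyme, differed by less than counting error, and the ferritin chains differed in opposite directions, *Fth1* lower and *Ftl1* higher by small amounts. The counting interval of the log2 ratio lay above 0 for 4 of the 8 genes, against 17.1% of the 12929 genes with at least 10 UMIs, and below 0 for 1, against 8.83%. The 1 gene at least 2-fold higher was *Slc40a1*, whose call the choice of the group fixed, so nothing is read from it beside the 3.89% of all genes. Its call is also 1 of the 4 above. None of the 8 was at least 2-fold lower, against 2.35% of all genes. The median log2 ratio was 0.15 for the 8 genes and 0.07 for all genes. *Fth1* and *Ftl1* have so many UMIs that small differences clear counting error, and the spread between mice could not be measured.

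Heme entry and breakdown come first in the pathway. *Slc48a1* was 38.8 CPM (interval 34.9 to 43.0) in Pgdfl/fl and 44.8 CPM (40.9 to 49.0) in Pgdfl/flLysMCre, a log2 ratio of 0.21 whose interval (0.01 to 0.41) barely cleared 0. With every cell thinned at random to 3000 UMIs that ratio was -0.29, so no direction is read for *Slc48a1*. *Hmox1* was 355 CPM (343 to 367) and 344 CPM (333 to 356), a log2 ratio of -0.04 (-0.11 to 0.03), with a UMI in 60.9% of Pgdfl/fl and 65.5% of Pgdfl/flLysMCre cells. Leaving out cells with any lymphocyte marker UMI, which left 483 and 431 cells, set *Hmox1* at 384 and 483 CPM, a log2 ratio of 0.33 (0.25 to 0.42), so the ratio of *Hmox1* depends on which cells are counted. *Blvrb* was 161 CPM (153 to 170) and 213 CPM (204 to 222), a log2 ratio of 0.40 (0.31 to 0.50). Its ratio stayed positive under all 10 alternatives tried, between 0.33 and 0.52. Of the 8 genes, *Blvrb* had the second largest log2 ratio in this class.

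Neither of the iron importers differed beyond counting error. *Slc11a1* was 101 CPM in Pgdfl/fl and 100.3 CPM in Pgdfl/flLysMCre, a log2 ratio of -0.01 (-0.14 to 0.12). *Tfrc* was 11.9 CPM from 110 UMIs and 14.1 CPM from 150 UMIs, a log2 ratio of 0.24 (-0.12 to 0.61). The counts of *Tfrc* thus do not leave out a log2 ratio as high as 0.61 or as low as -0.12. Without the cells holding lymphocyte UMIs, *Slc11a1* was higher in Pgdfl/flLysMCre by 0.19 (0.02 to 0.36) and *Tfrc* by 0.08 (-0.60 to 0.77).

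Ferritin made up a large part of the messages of these cells. Both chains together took 2.70% of all macrophage-like UMIs in Pgdfl/fl and 2.39% in Pgdfl/flLysMCre. *Fth1* was 20485 CPM and 16998 CPM, a log2 ratio of -0.27 (-0.28 to -0.26), and stayed negative under all 10 alternatives, between -0.34 and -0.15. *Ftl1* was 6502 CPM and 6946 CPM, a log2 ratio of 0.10 (0.08 to 0.11), and stayed positive under all 10, between 0.02 and 0.24. The median over all genes, 0.07, is close to that ratio. The heavy and light chains thus differed between the libraries in opposite directions, and nearly every cell carried each of them: 768 of the 769 Pgdfl/flLysMCre cells had an *Fth1* UMI and 767 an *Ftl1* UMI.

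**Figure D2:**
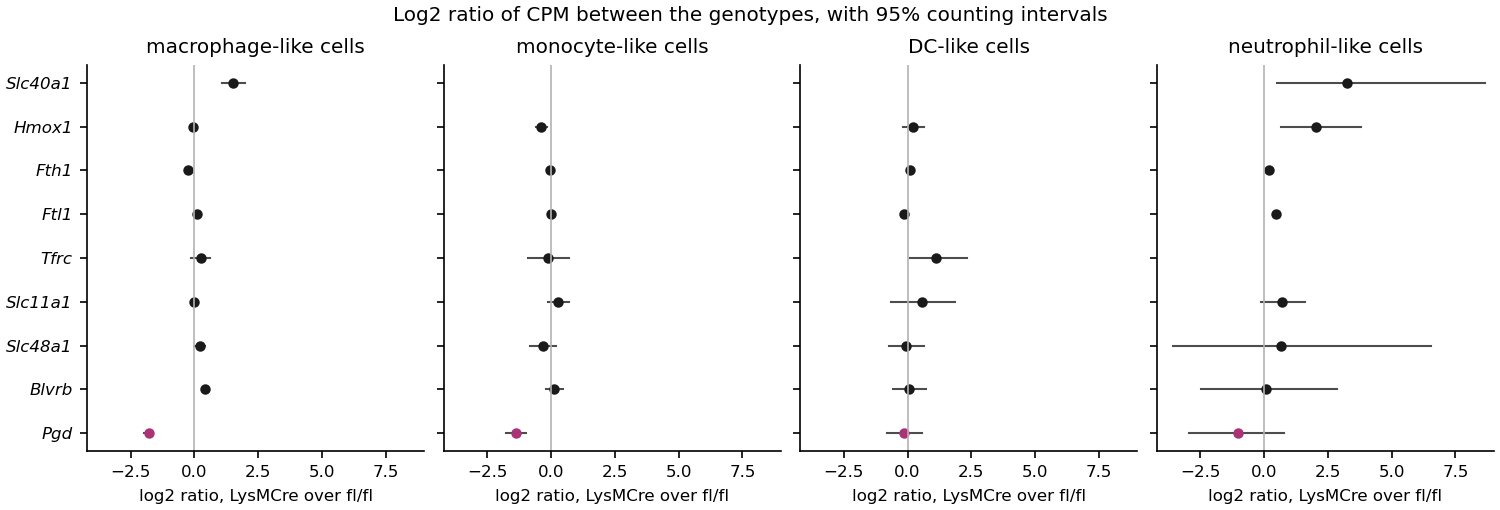
Log2 ratio of CPM, Pgdfl/flLysMCre over Pgdfl/fl, for the 8 genes (black) and *Pgd* (magenta) in each myeloid class, with exact 95% counting intervals as lines and grey lines at 0; genes with 0 UMIs in a library are not drawn. *Slc40a1* lies at 1.52 in macrophage-like cells, and intervals in neutrophil-like cells are wide.

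*Slc40a1* was rare in these cells, so its cells can be counted one by one. In Pgdfl/fl, 58 UMIs came from 26 of 749 macrophage-like cells (3.47%, exact interval 2.28 to 5.05), and in Pgdfl/flLysMCre 192 UMIs came from 63 of 769 cells (8.19%, 6.35 to 10.4). The levels were 6.29 CPM (4.77 to 8.13) and 18.1 CPM (15.6 to 20.8), a log2 ratio of 1.52 (1.09 to 1.97). Both the number of cells with a UMI and the number with more than 1 were higher in Pgdfl/flLysMCre: 17 of the Pgdfl/fl cells and 38 of the Pgdfl/flLysMCre cells held a single UMI, and 6 and 11 cells held 3 or more. The highest cell held 10 UMIs in Pgdfl/fl and 37 in Pgdfl/flLysMCre. In each library the 5 highest cells carried over 50% of the UMIs, namely 55.2% and 53.1%. Without those 5 cells the UMIs were 26 and 90 and the log2 ratio 1.59 (0.94 to 2.28). T cell-like cells held 0 *Slc40a1* UMIs in 1178 Pgdfl/fl and in 697 Pgdfl/flLysMCre cells, where 3 counts would have been 0.461 and 0.658 CPM, at median depths of 4502 and 4648 UMIs against 11861 and 12863 in macrophage-like cells. Thinned to 3000 UMIs a cell, which left out 40 and 58 shallower cells, 8 of 709 (1.13%) and 20 of 711 (2.81%) cells had a UMI.

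Markers of other cells moved with genotype within the macrophage-like class. Over 7 T cell markers the summed level was 588 CPM in Pgdfl/fl and 835 CPM in Pgdfl/flLysMCre, over 7 NK cell or ILC markers 153 and 301 CPM, and over 6 B cell markers 562 and 103 CPM, with all markers of each list present in both libraries. Where cells with such UMIs were left out, *Slc40a1* was 6.22 and 27.4 CPM, a log2 ratio of 2.14 (1.58 to 2.74), larger than in all cells. Erythroid markers were near 0 at 1.08 and 1.51 CPM in sum, and no cell held more than 2 UMIs of a hemoglobin gene. The 7 markers of red pulp macrophages, the iron-recycling macrophages of the spleen, summed to 716 and 575 CPM, nearly all of it *Vcam1*. *Spic*, the transcription factor that defines those cells, had 254 and 268 UMIs, a log2 ratio of -0.13 (-0.38 to 0.13). Of the 5 markers with at least 10 UMIs, 2 had an interval above 0 and 1, *Vcam1*, below, against 17.1% and 8.83% of all genes. The 2 were *Treml4*, with 45 and 78 UMIs (0.59, 0.04 to 1.15), and *Cd163*, with 6 and 19 UMIs (1.46, 0.08 to 3.07). The part of these other cells in the remaining values was not tested.

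The myeloid cells were clustered again into 16 subclusters, of which 15 had cells in both libraries. *Slc40a1* was one of the genes that entered this clustering, with *Hmox1*, *Ftl1*, *Slc48a1* and *Blvrb*, so the subclusters are used to describe where the UMIs lie. Subcluster 8, led by *Gpnmb*, *Mmp12*, *Atp6v0d2* and *Arg1*, held 47 Pgdfl/fl and 65 Pgdfl/flLysMCre cells, and had the highest *Fth1* level of all macrophage subclusters, 35877 CPM in Pgdfl/fl and 31875 CPM in Pgdfl/flLysMCre. *Slc40a1* there was 11.5 CPM from 8 UMIs in 4 cells in Pgdfl/fl and 100.3 CPM from 90 UMIs in 11 cells in Pgdfl/flLysMCre, a log2 ratio of 3.12 (2.08 to 4.38). The highest 3 of the Pgdfl/flLysMCre cells held 37, 28 and 14 UMIs, so the level is that of a few cells. Without the 5 highest cells of each library, 0 and 6 UMIs remained. This subcluster made up 6.28% of Pgdfl/fl and 8.32% of Pgdfl/flLysMCre macrophage-like cells, yet held 13.8% and 46.9% of their *Slc40a1* UMIs.

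Other genes of the pathway were also at their high end in the *Gpnmb* subcluster. *Hmox1* was 619 CPM from 430 UMIs and 977 CPM from 876 UMIs, a log2 ratio of 0.66 (0.49 to 0.83), but the highest Pgdfl/flLysMCre cells held 241 and 170 UMIs. Without the 2 highest cells of each library *Hmox1* was 543 and 546 CPM, a log2 ratio of 0.01 (-0.20 to 0.21), so the difference rests on those cells. *Slc48a1* was 69.0 and 136 CPM, a log2 ratio of 0.98 (0.49 to 1.49). *Blvrb* was 329 and 401 CPM, and *Slc11a1* 148 and 193 CPM. *Ftl1* was 12767 and 14599 CPM, a log2 ratio of 0.19 (0.15 to 0.23), beside a ratio of -0.17 (-0.20 to -0.15) for *Fth1*. The exception was *Tfrc*. It was 12.9 CPM from 9 UMIs in Pgdfl/fl, near the 11.9 CPM of all macrophage-like cells, and 2.23 CPM from 2 UMIs in Pgdfl/flLysMCre. *Pgd* was 184 CPM and 34.6 CPM in the same cells. When the 8 genes, *Pgd* and *Lyz2* were kept out of the clustering, 107 of the 112 cells stayed together, 1 Pgdfl/fl cell with 10 *Slc40a1* UMIs joined them, and *Slc40a1* was 24.4 and 104.8 CPM, a log2 ratio of 2.10 (1.36 to 2.92).

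Outside the *Gpnmb* cells, *Slc40a1* UMIs were spread thinly. Subcluster 0, led by *Hes1*, *Bag3* and *Ccl12*, held 23 UMIs in 191 Pgdfl/fl and 42 in 179 Pgdfl/flLysMCre cells, 10.3 and 19.7 CPM (log2 ratio 0.94, 0.17 to 1.74). Subcluster 1, led by *Tgfb3* and *Cxcl1*, held 5 and 12 UMIs, and subcluster 9, led by *Adamdec1* and *Hebp1*, 0 and 6. Subcluster 3, whose leading genes *Gzma* and *Xcl1* are lymphocyte genes, held 3 and 21 UMIs. The cycling subcluster 4 held 6 and 6. In subcluster 5, led by the T cell genes *Il1rl1* and *Foxp3*, the order was turned, 22.4 CPM from 13 UMIs against 9.36 CPM from 15 UMIs, but the Pgdfl/fl UMIs came from 2 cells, 1 of which held 10. With that cell placed elsewhere by the clustering without the 8 genes, subcluster 5 held 3 and 15 UMIs, 4.96 and 9.23 CPM. In the 7 subclusters with at least 10 *Slc40a1* UMIs, the level was higher in Pgdfl/flLysMCre in 5.

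**Figure D3:**
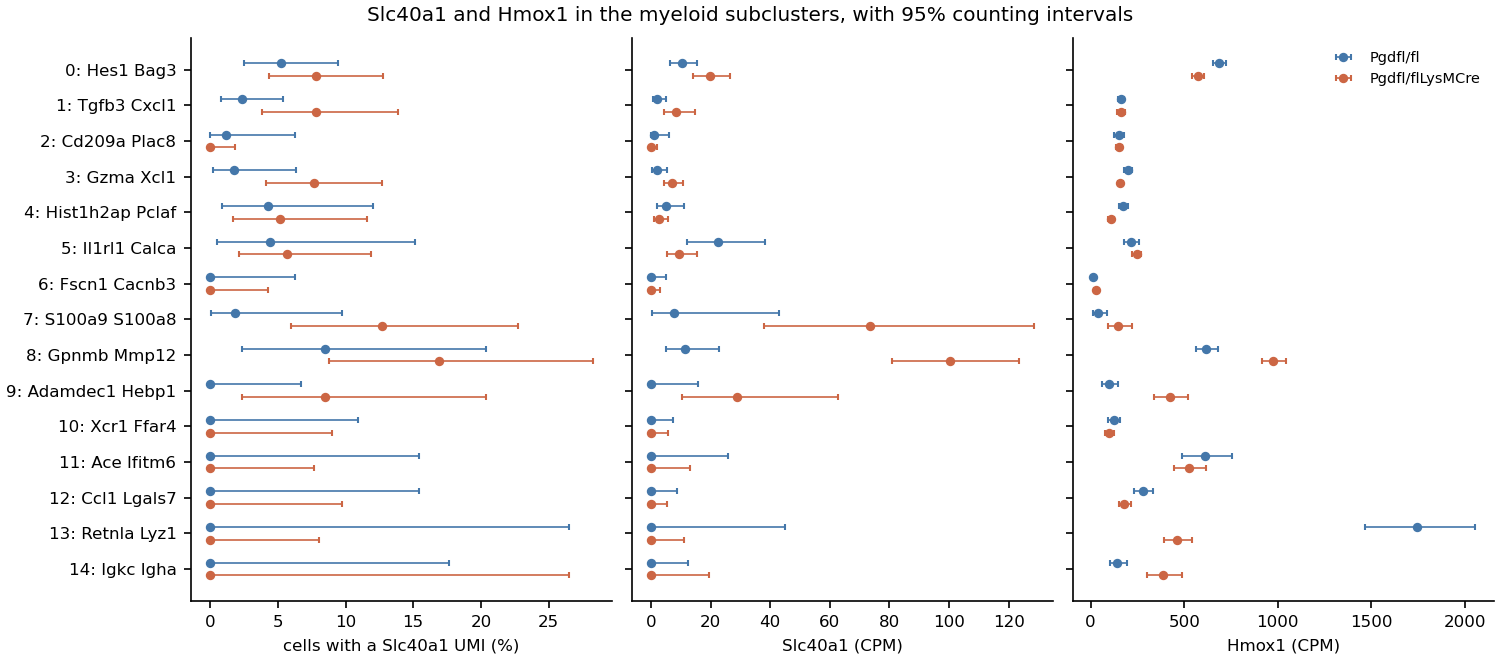
Share of cells with a *Slc40a1* UMI (left, exact binomial 95% intervals), *Slc40a1* level (middle) and *Hmox1* level (right) in CPM with exact Poisson 95% intervals, for the 15 myeloid subclusters named by 2 leading genes, blue for Pgdfl/fl and red for Pgdfl/flLysMCre. *Slc40a1* stands out in Pgdfl/flLysMCre cells of subclusters 7 (neutrophil-like, 73.5 CPM) and 8 (*Gpnmb*, 100.3 CPM), and *Hmox1* in the Pgdfl/fl cells of subcluster 13, which number 12.

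*Hmox1* levels differed between subclusters, but *Hmox1* entered the clustering and is among the leading genes of subcluster 0. That spread is therefore a description and is not set against the difference between genotypes. *Hmox1* levels in the better counted subclusters were high in subcluster 0, 686 CPM in Pgdfl/fl and 574 CPM in Pgdfl/flLysMCre, and in the *Gpnmb* cells. They were also high in subcluster 11, led by *Ace* and *Adgre4* of patrolling monocytes (611 and 524 CPM). The genotype ratio had no common sign, with 6 of 15 subclusters higher and 9 lower in Pgdfl/flLysMCre. In subcluster 13, led by *Retnla*, *Lyz1* and *Fn1*, it had its highest level of all, 1741 CPM in Pgdfl/fl, against 461 CPM in Pgdfl/flLysMCre, but 95.1% of the Pgdfl/fl UMIs came from 5 of 12 cells. In subcluster 9 it was 98.4 and 422 CPM, with 83.0% of the Pgdfl/flLysMCre UMIs in 5 of 47 cells. Subcluster 0 was less concentrated, with 12.7% and 17.8% of its *Hmox1* UMIs in the 5 highest cells. In the cycling subcluster 4 it was 173 and 109 CPM, a log2 ratio of -0.67 (-0.94 to -0.39).

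*Blvrb* had the most even pattern. Of 14 subclusters with at least 10 UMIs, 12 were higher in Pgdfl/flLysMCre, with the interval above 0 in 6 and below 0 in 0. In subcluster 0 it was 157 and 254 CPM (log2 ratio 0.69, 0.50 to 0.89), in subcluster 1 173 and 221 CPM, and in subcluster 9 265 and 527 CPM (0.99, 0.53 to 1.46). *Slc11a1* was higher in 10 of 14 subclusters, with the interval above 0 in 2 and below 0 in 1, the cycling cells (57.5 and 38.8 CPM, a log2 ratio of -0.57). *Slc48a1* was higher in 6 of 14 and *Tfrc* in 6 of 10, so neither had a common direction.

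The proportion of heavy to light ferritin chain messages differed between cell classes and, in several of them, between the libraries. It is given as *Fth1* UMIs per *Ftl1* UMI, a ratio of counts that is not corrected for message length and does not describe the protein shell. In macrophage-like cells it was 3.15 (interval 3.12 to 3.18) in Pgdfl/fl and 2.45 (2.43 to 2.47) in Pgdfl/flLysMCre. Monocyte-like cells stood at 3.93 (3.82 to 4.05) and 3.83 (3.76 to 3.89), with overlapping intervals. DC-like cells had the lowest ratio of the classes and went the other way, from 1.46 (1.41 to 1.52) to 1.70 (1.65 to 1.75). Neutrophil-like cells had the highest, 5.05 (4.66 to 5.46) and 4.20 (3.95 to 4.47). T cell-like cells, in which *Pgd* was not lower, stood at 3.59 (3.48 to 3.70) and 3.95 (3.82 to 4.08), so the ratio differed between the libraries there too, in the opposite direction to macrophage-like cells. The make-up of the T cell-like class also differed. Its cluster led by *Lef1* and *Dapl1* held 467 of 1178 cells in Pgdfl/fl and 52 of 697 in Pgdfl/flLysMCre. The part of this in the T cell-like ferritin and *Pgd* values was not tested.

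Within the myeloid subclusters, the ratio was lower in Pgdfl/flLysMCre with separate intervals in 9 of 15, higher in 2, and overlapping in 4. It was lower in the subclusters that held most macrophage-like cells, such as subcluster 0 (2.83 and 2.25), subcluster 1 (3.69 and 2.75), the lymphocyte gene-bearing subcluster 3 (3.61 and 2.87) and the *Gpnmb* cells (2.81 and 2.18). The subclusters with a higher ratio were number 2, led by *Cd209a*, *Plac8* and *Ly6c2* (3.77 and 4.42), and number 6, the DC-like cells led by *Fscn1* and *Ccl22* (1.26 and 1.46).

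**Figure D4:**
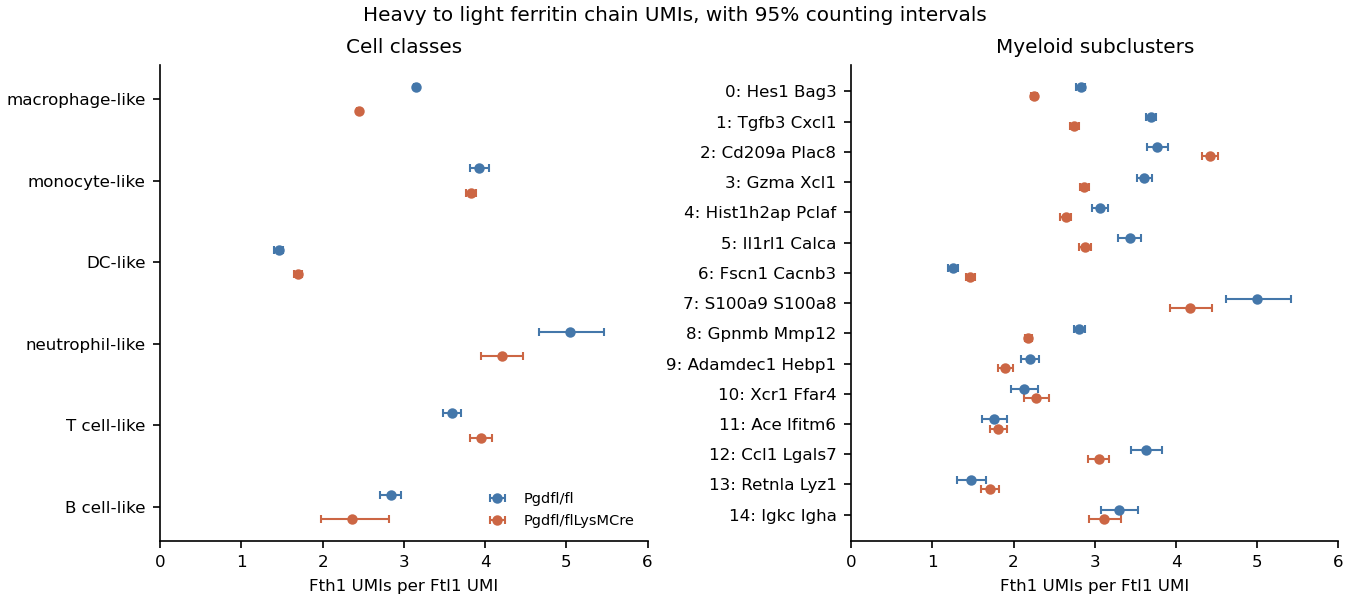
*Fth1* UMIs per *Ftl1* UMI in each cell class (left) and in the 15 myeloid subclusters (right), blue for Pgdfl/fl and red for Pgdfl/flLysMCre, with 95% counting intervals as bars. The macrophage-like ratio is 3.15 against 2.45, and DC-like and T cell-like cells lie in the opposite order.

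Monocyte-like cells had too few *Slc40a1* UMIs to compare genotypes. They held 1 *Slc40a1* UMI in Pgdfl/fl and 0 in Pgdfl/flLysMCre, which allows up to 4.18 and 0.907 CPM. The macrophage-like levels of the same libraries were 6.29 CPM (4.77 to 8.13) and 18.1 CPM (15.6 to 20.8), so the gap in Pgdfl/fl is small. *Hmox1* was 201 CPM (178 to 227) and 154 CPM (143 to 167), a log2 ratio of -0.38 (-0.59 to -0.17), but 50% of the Pgdfl/fl UMIs lay in 5 cells, and without the 5 highest cells of each library the ratio was 0.25. *Fth1* was 16936 and 16362 CPM, a log2 ratio of -0.05 (-0.07 to -0.03) that took the opposite sign under 4 of 8 alternatives. No direction is read for either gene. *Ftl1* was 4309 and 4274 CPM, *Blvrb* 72.1 and 78.9 CPM, *Slc11a1* 46.6 and 56.5 CPM, and *Slc48a1* 35.3 and 28.5 CPM, and *Tfrc* had 20 and 56 UMIs, all with intervals of the ratio that covered 0. Against macrophage-like cells of the same library, monocyte-like cells had lower *Hmox1*, *Blvrb* and *Slc11a1* with separate intervals in both libraries, while *Tfrc* intervals overlapped.

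DC-like cells had the lowest ferritin levels of the 4 myeloid classes compared, 4672 and 4923 CPM for *Fth1* and 3199 and 2900 CPM for *Ftl1*, and 0 *Slc40a1* UMIs in either library. The *Fth1* ratio (0.08, 0.03 to 0.12) turned to -0.18 when cells with lymphocyte UMIs were left out. The *Ftl1* ratio (-0.14, -0.20 to -0.09) stayed negative under all 8 alternatives but came as close to 0 as -0.03, and without cells holding lymphocyte UMIs its interval covered 0 (-0.06, -0.13 to 0.01). *Tfrc*, which dividing cells need for iron, was 7.24 CPM from 10 UMIs and 15.9 CPM from 35 UMIs, a log2 ratio of 1.13 (0.09 to 2.31). Without cells holding lymphocyte UMIs 4 and 7 UMIs remained, and the ratio was 0.62 (-1.36 to 2.84). In the same class the summed level of 7 cell cycle markers was 161 and 518 CPM, and its part in the *Tfrc* value was not tested. *Hmox1* was 54.3 and 63.5 CPM, *Slc11a1* 6.51 and 9.52 CPM, *Slc48a1* 23.2 and 22.2 CPM and *Blvrb* 24.6 and 25.8 CPM, all with intervals of the ratio that covered 0.

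Neutrophil-like cells were few and shallow, with median depths of 2231 and 2113 UMIs, and their values rest on single UMIs. *Slc40a1* had 1 UMI in 57 Pgdfl/fl cells and 12 UMIs in 9 of 72 Pgdfl/flLysMCre cells, a ratio with an interval from 0.50 to 8.68 on the log2 scale. Without cells holding lymphocyte UMIs there were 1 and 7 UMIs, and the interval (-0.67 to 7.79) covered 0. *Hmox1* had 5 UMIs in 4 cells and 26 UMIs in 13 cells, a log2 ratio of 2.05 (0.65 to 3.79). The macrophage gene *C1qa* in the same cells was 160 CPM in Pgdfl/fl and 69.6 CPM in Pgdfl/flLysMCre. In the Pgdfl/flLysMCre library 2 neutrophil-like cells carried 8063 hemoglobin UMIs between them, and these 2 cells held 0 of the 12 *Slc40a1* UMIs. The ferritin genes were well counted: *Fth1* was 27501 and 31685 CPM (log2 ratio 0.20, 0.14 to 0.26), and *Ftl1* 5451 and 7540 CPM (0.47, 0.34 to 0.60), against a median over all genes of -0.10 in this class. *Slc11a1*, at 138 and 226 CPM, had the highest level of the 4 myeloid classes here in Pgdfl/flLysMCre, with a log2 ratio of 0.71 (-0.12 to 1.58). *Tfrc* (0 and 2 UMIs), *Slc48a1* (1 and 2) and *Blvrb* (3 and 4) were at or near the limit of detection.

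The other genes of iron and heme handling were read from lists in macrophage-like cells, where over all genes the interval lay above 0 for 17.1% and below 0 for 8.83% and the median log2 ratio was 0.07. The lists are short, and their counts are descriptions. Of 12 genes of iron uptake and transport, 10 had enough UMIs, 0 were 2-fold different, and the interval lay above 0 for 1 and below 0 for 2, with a median log2 ratio of 0.02. *Lrp1*, a receptor that takes up heme bound to hemopexin among other ligands, was 78.9 and 123 CPM (log2 ratio 0.64, 0.51 to 0.77), while transferrin (*Trf*) stood at 291 and 292 CPM. The mitochondrial iron importer *Slc25a28* had a log2 ratio of -0.27 and the divalent metal transporter *Slc11a2* one of -0.29. In the list of export and ferroxidases, 3 of 8 genes had enough UMIs, 1 was at least 2-fold lower, and 0 had an interval that left out 0: *Hfe* had a log2 ratio of 0.03, *Cp* (ceruloplasmin, a ferroxidase) -0.38, and *Tfr2* 9 and 3 UMIs. The hormone hepcidin, which removes ferroportin from the membrane, was near 0, with 1 and 0 UMIs of *Hamp*.

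Of 11 measured genes of storage and regulation, 4 had an interval above 0 (17.1% of all genes did) and 0 below, with a median of 0.15, or 0.08 over that of all genes. The 4 were the iron chaperones *Pcbp2* (0.32, 0.25 to 0.39) and *Pcbp1* (0.21, 0.12 to 0.30), *Cisd2* (0.37, 0.22 to 0.52) and *Fbxl5*. The ferritin autophagy receptor *Ncoa4*, at 56.6 and 57.2 CPM, and the iron-sulfur scaffold *Iscu*, with a log2 ratio of 0.03, had intervals that covered 0. Heme synthesis genes were measured for 8 of 9, with the interval above 0 for 3, against the same 17.1%, and below 0 for 0, and a median of 0.11, or 0.04 over that of all genes. Its first enzyme *Alas1* had a log2 ratio of -0.17 (-0.36 to 0.02) and its last, *Fech*, 0.34 (0.03 to 0.66). Of 9 measured genes of heme and hemoglobin uptake, breakdown and export, 1 was at least 2-fold higher, and the interval lay above 0 for 2 and below 0 for 1, with a median of 0.02. *Flvcr1*, a heme exporter, was 31.9 and 22.8 CPM (-0.49, -0.74 to -0.23), *Hmox2*, the constitutive heme oxygenase, 58.8 and 66.0 CPM (0.17, 0.00 to 0.33), and *Blvra* 49.1 and 43.7 CPM (-0.17, -0.36 to 0.02). *Cd163*, the receptor for hemoglobin bound to haptoglobin, was the gene past 2-fold, from 6 UMIs in 4 cells and 19 UMIs in 7 cells.

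Transcription factors known for iron and heme genes were all measured, 11 of 11, with the interval above 0 for 5 and below 0 for 2, against 17.1% and 8.83% of all genes, and a median of 0.21 against 0.07. *Bach1*, the heme-sensing repressor of *Hmox1*, was 132 and 155 CPM (0.24, 0.13 to 0.35), *Nfe2l2*, which encodes the activator NRF2, 519 and 470.1 CPM (-0.14, -0.20 to -0.08), and *Hif1a* 160.4 and 185 CPM (0.21, 0.11 to 0.30). Among 8 enzymes known as NRF2 targets, the interval lay above 0 for 4 and below 0 for 0, against 17.1% and 8.83% of all genes, with a median of 0.34 against 0.07. *Prdx1*, a peroxiredoxin, was 605 and 837 CPM (0.47, 0.42 to 0.52), *Slc7a11*, the cystine importer, had a ratio of 0.17 and *Txnrd1* one of -0.03. *Nqo1*, with 3 and 9 UMIs, was the 1 gene past 2-fold, and its interval covered 0. Among genes with at least 50 UMIs, the median of this list was 0.21.

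**Figure D5:**
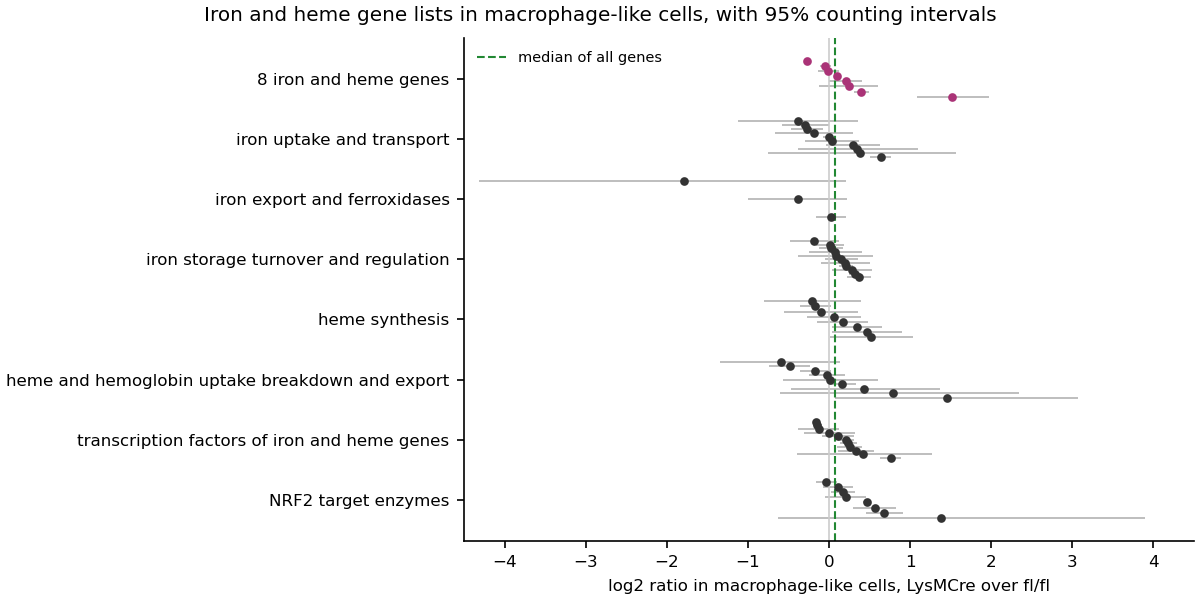
Log2 ratio, Pgdfl/flLysMCre over Pgdfl/fl, of each measured gene in macrophage-like cells, grouped by list, with exact 95% counting intervals as grey lines; magenta marks the 8 genes and the dashed green line the median of all genes, 0.07. The point at 1.52 is *Slc40a1*, and few other points lie beyond 1 in either direction.

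The 8 genes were also compared by their profile over the subclusters, using 27 combinations of subcluster and library with at least 20 cells. The points share 2 libraries and differ in depth, and the values are descriptions. *Fth1* and *Ftl1* went together (Pearson r = 0.82), as did *Fth1* and *Slc11a1* (0.80) and *Ftl1* and *Blvrb* (0.76). *Slc40a1* went with *Ftl1* (0.64) and *Fth1* (0.63) more than with *Hmox1* (0.39). *Tfrc* went against the ferritin light chain (-0.48) and against *Slc40a1* (-0.41). Of 9944 genes, the profiles most like *Slc40a1* were those of *Arap3* (0.81), *Dmxl2* (0.72), *Fam50a* (0.71), *Snx14* (0.70) and *Cdc23* (0.69). Those most like *Hmox1* were *P4ha1*, a collagen prolyl hydroxylase (0.88), *Plin2*, a lipid droplet coat protein (0.84), *Ifi207* (0.82), *Stard8* (0.81) and *Daglb* (0.80).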

How the data were processed

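The authors deposited unnormalized UMI counts per gene and barcode, the filtered output of Cell Ranger 6.1.2 on mm10 per the submitters' processing notes, for 3728 barcodes with 27245625 UMIs (Pgdfl/fl) and 3014 barcodes with 28827045 UMIs (Pgdfl/flLysMCre). The oligonucleotide tag of the labelled library made up a median of 89.6% and 94.5% of the tag counts of a barcode. Barcodes passed with 500 to 7500 genes and no more than 15% mitochondrial UMIs, which in each library left more cells than the study states, and were clustered with Seurat 5.3.0 (R 4.3.3; 2000 variable genes, 30 components, 20 neighbours, resolution 0.8, no integration). A cluster was named when at least 3 markers of a type were each found in 25% of its cells, its scaled marker score reached 0.5 and its 10 leading genes did not go against the name. No doublet caller was used; cells with lymphocyte marker UMIs were left out as an alternative.

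Counts were summed per class and library. Sums carry exact Poisson intervals, shares exact Clopper-Pearson intervals and log2 ratios exact conditional intervals (scipy 1.17.1, numpy 2.4.6, pandas 2.3.3, Python 3.11.15). The ratio intervals were tried on simulated counts that carried counting error only. That simulation cannot show how they behave where a few cells carry most of the UMIs. Genes with at least 10 UMIs over both libraries were compared. From each list the 4 measured genes with most UMIs were named, plus those at least 2-fold different with an interval leaving out 0. *Fbxl5*, *Ncoa4*, *Hamp* and *Nqo1* fall outside that rule and were named after their values were seen. One gene that the rule picks is not reported here. For likeness, log2 of CPM plus 5 was used, over genes with at least 100 UMIs. Members, lists and alternatives were chosen with earlier results of these data known.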

Additional observations from a re-analysis of the deposited data

Results flagged for a closer look

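Some log2 ratios between genotypes pointed in opposite directions in 2 cell classes, with both counting intervals leaving out 0. The difference between classes was not tested, since each genotype was 1 library. For *Hmox1* the log2 ratio was -0.38 in monocyte-like and 2.05 in neutrophil-like cells, a difference of -2.43, where the neutrophil-like value rests on 5 and 26 UMIs and the monocyte-like one was 0.25 without the 5 highest cells of each library. For *Fth1* the ratio was -0.27 in macrophage-like cells against 0.08 in DC-like cells, a difference of -0.34, and against 0.20 in neutrophil-like cells, a difference of -0.47. The *Fth1* ratio of monocyte-like cells, -0.05, differed from the neutrophil-like one by -0.25, but its sign turned under 4 of 8 alternatives. The DC-like ratio of *Fth1* kept its sign under 6 of 8. For *Ftl1* the ratio was 0.10 in macrophage-like and -0.14 in DC-like cells, a difference of 0.24.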

How the results depend on the processing

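With 1 library a genotype, no replicate could be left out. No paired analysis was possible because each genotype has 1 library. The log2 ratio of *Slc40a1* in macrophage-like cells stayed positive under all 10 alternatives. The group was chosen on this ratio and the alternatives use the same counts again, so its sign is a description and supports nothing. The *Slc40a1* ratio was 2.14 without cells holding lymphocyte UMIs. It was 0.63 in 1 random thinning to 3000 UMIs (20 and 31 UMIs), where the expected value over thinnings was 1.30. With a minimum of 50 UMIs in place of 10, 1.46% of genes were at least 2-fold higher and 0.562% at least 2-fold lower. Of 244 values of the 8 genes in the cell classes under an alternative, 178 stayed within the counting interval of the reported value. Inside or outside it, 35 took the opposite sign, 8 of them of a reported value whose interval left out 0. *Slc48a1* in macrophage-like cells was -0.29 in the random thinning and *Hmox1* in monocyte-like cells 0.25 without the 5 highest cells. *Fth1* in monocyte-like cells was 0.034 without cells holding lymphocyte UMIs, 0.063 thinned, 0.039 as the expected value of thinning and 0.0041 with each cell weighted equally. *Fth1* in DC-like cells was -0.18 without cells holding lymphocyte UMIs and -0.0051 with the median of all genes set to 0. The cause was not tested. Expected thinning, the removal of the 2 or 5 highest cells or of hemoglobin-rich cells, the largest cluster alone and subclustering without the 8 genes were added after seeing the data. Without the 5 highest cells of each library, *Hmox1* in subcluster 8 was -0.068 (0.01 without 2). Depth limits the genes counted by few UMIs, such as *Slc40a1* and *Tfrc*.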
